A study of Rattus norvegicus with 113 samples.

Results

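The genes described are the receptors, ligands and intracellular signal carriers of the interleukin-6 (IL-6) cytokine family in the rat brain after traumatic brain injury (TBI). They are the ligands Il6, Lif and Cntf, the receptor chains Il6r, Il6st, Osmr and Lifr, the kinase Jak2, the transcription factor Stat3 and the feedback inhibitor Socs3. Array probes were assigned to them through the RefSeq identifiers of the scanner files, which gave 15 probes for the 10 genes, of 56688 probes and 16691 named genes on the arrays. All 10 genes had a probe on both array designs used.

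Cytokines of this family bind a receptor chain of their own and share a signal-transducing chain, gp130, the product of Il6st. The receptor complex activates Janus kinases such as JAK2, which phosphorylate STAT3, and STAT3 then enters the nucleus and activates genes of the acute phase response, gliosis and cell survival. Socs3 is one of those genes, and its protein binds gp130 and JAK2 and shuts the signal off, so its RNA is widely read as a trace of recent signaling through the pathway.

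Adult male Sprague-Dawley rats received a parasagittal fluid percussion brain injury (TBI), the same surgery without the injury (sham), or neither anesthesia nor surgery (naive). The labels call the injury moderate and the methods call it severe. RNA of the whole hippocampus and of the cortex beneath the injury site was labelled with a single dye and measured on Agilent rat arrays at 24 hr, 2 weeks, 3 months, 6 months and 12 months after injury. Each group held 4 rats, except that the hippocampus at 24 hr had 2 sham rats, 3 TBI rats and no naive group, so 113 arrays in 29 groups were used. Both are bulk tissues, and the injured cortex can hold cells that entered from the blood. A level is the log2 of the background-subtracted signal of a probe minus the log2 median signal of its array, and a difference is one group's mean level minus the other's. Probes hybridize unequally, so levels of different genes were not compared.

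By the scanner software's test, 41.3% to 93.0% of an array's probes lay well above background (median 56.0%), and no probe was saturated. In 3 arrays the gap between the 75th percentile and the median of the signal lay more than 0.5 log2 units from that of the other arrays. These were cortex sham 2 weeks replicate 3, cortex naive 2 weeks replicate 4 and hippocampus naive 6 months replicate 2, with gaps of 0.80, 2.20 and 3.05 against 3.27 to 4.01 in the other 110 arrays. The tests below that involve them are given with and without them. The exception is tests of whether the TBI difference varied between tissues or intervals, which used all arrays. The summed level of 4 cortical marker genes (Tbr1, Rorb, Cux2, Lamp5) divided by that of 5 hippocampal ones (Prox1, Zbtb20, Wfs1, Spink8, Lct) was 0.0875 to 0.297 in hippocampal arrays of the larger design and 0.361 to 2.15 in 57 cortical arrays. In cortex sham 3 months replicate 1 the ratio was 0.0868. Its cortical markers summed to 9.41, the lowest of the 58 cortical arrays of that design, while its hippocampal markers summed to 108, within the cortical range (87.4 to 229) and below the hippocampal one (150 to 223). The 3-month cortical values are therefore also given without it. A smaller design (17 arrays) served for the hippocampus at 24 hr and 3 months, and on it Socs3 and Il6st are read from other probes than on the larger design (96 arrays), so their levels are not comparable between the designs.

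Receptor chains, kinase and transcription factor were measurable in nearly every array, whereas most ligands and the oncostatin M and LIF receptors were near the detection limit. The interleukin-6 gene itself (Il6, chr4:5889999-5894575, rat assembly GRCr8) was well above background in 2 of 113 arrays, 1 cortical sham and 1 cortical TBI array. That sham array was among those that stand apart. Lif (chr14:83354602-83364053), which encodes leukemia inhibitory factor, was above background in 26 arrays. Cntf (chr1:219312512-219314535), a ligand made mainly by glia, was above background in all 113. The receptor for IL-6, Il6r (chr2:177582020-177646705), passed in 112 arrays and Il6st (chr2:45798872-45839501) in 113. Osmr (chr2:57634517-57688802) and Lifr (chr2:57951787-58020357), which pair with gp130 to bind oncostatin M and LIF, passed in 12 arrays each. Of the 20 cortical TBI arrays, 5 had a measurable Osmr level and 7 a measurable Lifr level. This held for 3 and 1 of the 20 cortical sham arrays and 1 and 0 of the 20 cortical naive arrays. Without the arrays that stand apart, 7 cortical arrays in all had a measurable Osmr level and 7 a measurable Lifr level. Jak2 (chr1:236408905-236468769) passed in 113 arrays, Stat3 (chr10:86311528-86363513) in 111 and Socs3 (chr10:103692579-103695975) in 96. Of the 17 arrays without a measurable Socs3 level, 15 were hippocampal arrays of the smaller design, among them all 12 at 3 months, where its level was -2.87 to -1.29 in TBI rats and could not be tested.

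A probe entered a test when all arrays of 1 or both groups had it well above background, and it was fitted with limma and Benjamini-Hochberg adjustment over all tested probes. It was called at an adjusted p under 0.05. Over the 10 comparisons of TBI with sham, 61 tests of the 10 genes were made and 4 were called, all higher after TBI. These were Il6st, Jak2 and Stat3 in the hippocampus at 24 hr, where 13.5% of all tested probes were called. The other was Socs3 in the hippocampus at 2 weeks, where 2.37% were called. No member was called in the cortex against sham in the full set of arrays. Against naive rats, Jak2, Stat3 and Socs3 were higher in the injured cortex at 24 hr, and Osmr and Lifr were measurable in all TBI and in no naive arrays there. Il6 passed the filter in no comparison of TBI with sham, Lif, Osmr and Lifr only in the cortex at 24 hr, and Socs3 in 8 of 10.

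**Figure D1:**
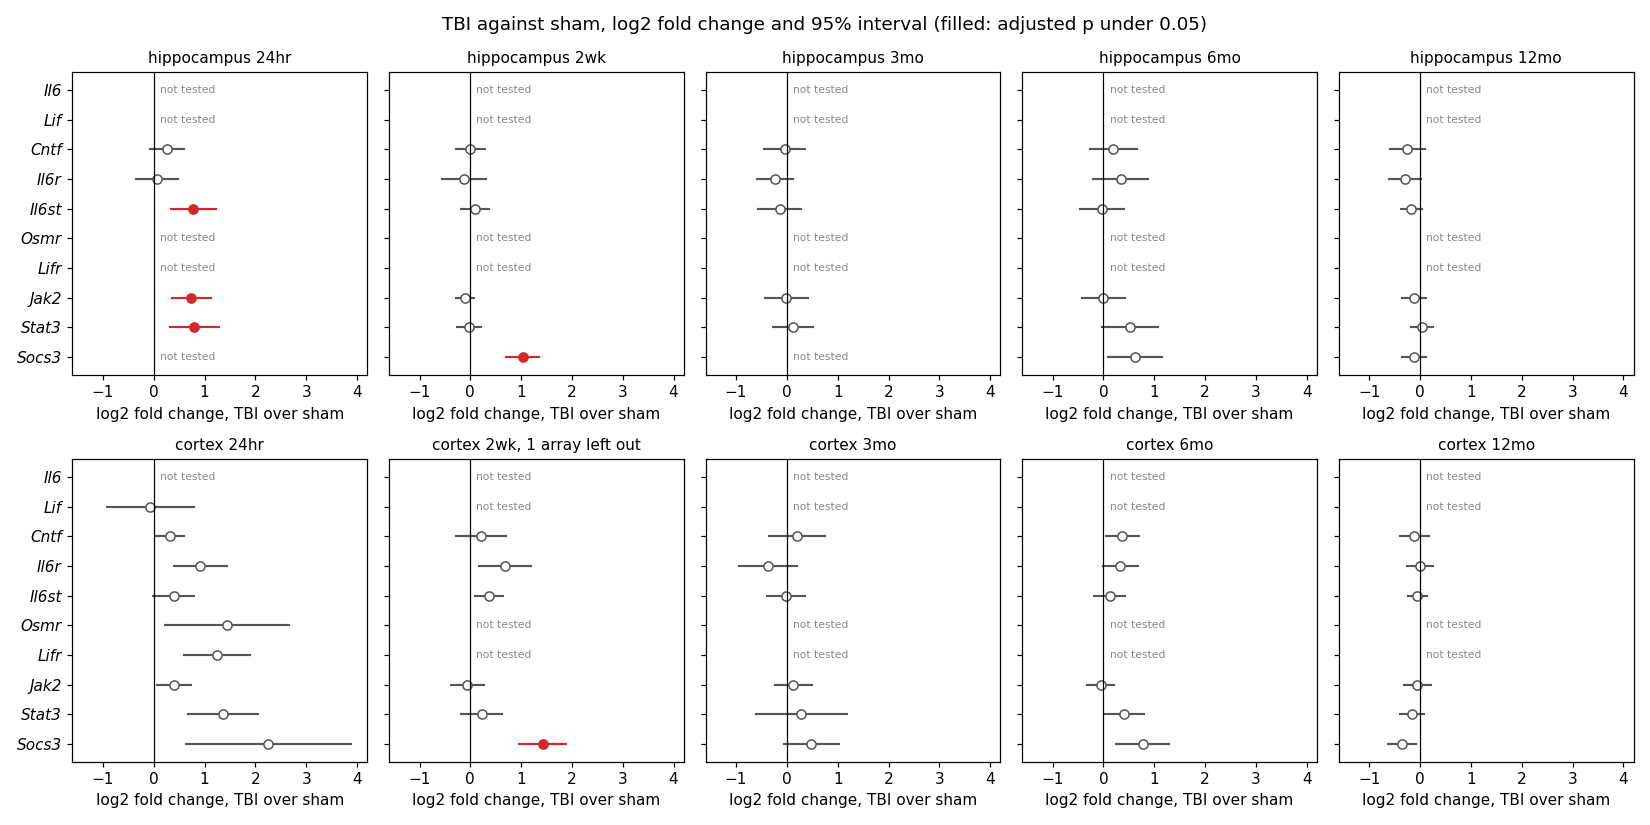
Log2 difference of TBI from sham (points, with 95% confidence intervals from limma) for each gene, with 1 panel per tissue and interval, filled red points where the adjusted p was under 0.05 and genes that did not pass the filter marked as not tested. The cortex panel at 2 weeks leaves out the arrays that stand apart, and there Socs3 is filled at 1.42, beside Il6st, Jak2 and Stat3 in the hippocampus at 24 hr and Socs3 in the hippocampus at 2 weeks.

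In the cortex at 24 hr, Socs3 rose from naive to TBI rats by 3.72 on the log2 scale, and sham rats lay between. Its levels were 1.37, 1.00, 1.41 and 1.30 in naive rats, 1.51, 4.04, 1.69 and 3.67 in sham rats, and 6.42, 3.99, 3.21 and 6.33 in TBI rats. All sham rats lay above all naive rats, and sham replicates 2 and 4 reached the range of TBI replicates 2 and 3. The difference of TBI from naive was called (SE 0.75, limma adjusted p = 0.0102), while that from sham, 2.26 (SE 0.75, 95% interval 0.63 to 3.88), was not (adjusted p = 0.123). Sham differed from naive by 1.46 (SE 0.73, adjusted p = 0.179). A second Socs3 probe on the larger design gave 2.57 against naive (adjusted p = 0.0197) and 1.62 against sham (adjusted p = 0.169). Of all tested probes, 17.5% were called between TBI and naive cortex at 24 hr, 0.216% between TBI and sham, and 19.2% between sham and naive. These shares depend on the scaling. Between sham and naive, 4584 of 23816 probes were called as given and 414 when arrays were scaled to their 75th percentile. Between TBI and sham the count went from 56 to 1 of 25867, and between TBI and naive from 4536 to 4177 of 25939. The median difference of all probes between TBI and sham was 0.12, and it was -0.02 under that scaling, so that the members' differences relative to the other probes are smaller by 0.12 than those given. In such bulk samples, more cells of a type and more RNA per cell cannot be told apart.

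Stat3 levels in sham rats did not reach those of TBI rats. The level was 2.04, 1.87, 2.00 and 2.05 in naive rats, 1.68, 2.66, 1.73 and 2.55 in sham rats and 3.89, 3.04, 2.85 and 4.29 in TBI rats, so that every TBI rat lay above every sham and naive rat. Sham replicates 2 and 4 were again the highest of their group. Stat3 rose by 1.53 against naive (SE 0.32, adjusted p = 0.0112) and differed from sham by 1.36 (SE 0.32, 95% interval 0.68 to 2.05, adjusted p = 0.0737), which was not called. Jak2 rose by 0.56 against naive (SE 0.15, adjusted p = 0.0278), with levels of 3.48 to 4.04 in naive and 4.19 to 4.51 in TBI rats, and differed from sham by 0.40 (adjusted p = 0.161). Its call against naive was lost without the filter on dim probes (adjusted p = 0.054).

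The receptor chains Osmr and Lifr had no measurable level in any naive cortex at 24 hr and a measurable one in all 4 TBI rats. Osmr levels in TBI rats were 0.52, -0.45, -0.57 and 1.16, and of the sham rats only replicate 2, at 0.18, was above background. Lifr levels were -0.87, -1.07, -0.97 and 0.32 in TBI rats, with no sham rat above background. Because the naive signal was below detection, the difference is given as a bound, at least 3.73-fold for Osmr and at least 1.80-fold for Lifr under the main processing. More probes were well above background in the TBI arrays, 59.7% to 61.0%, against 52.2% to 59.5% in naive and 53.6% to 56.4% in sham arrays. Both genes entered the filtered test only through the TBI arrays, where they were high, so that test is not used for them. When all probes were tested without the filter, the limma adjusted p was 0.0292 for Osmr and 0.0419 for Lifr. Naive signals were below detection in that test too, and its share of all probes called is not known here. Against sham, the fit without the filter called 9659 of 45598 probes, and the filtered fit 56 of 25867. With normexp background correction Lifr differed by 0.20 (adjusted p = 0.308). Over all alternatives the log2 difference from naive was 0.67 to 2.76 for Osmr and 0.20 to 1.33 for Lifr, so the bounds do not hold under every processing. The bound is the TBI mean against the higher of the probe's own signal and the lowest signal well above background on each naive array. Against sham, the bound for Lifr was at least 1.62-fold, and Osmr differed by 1.44. Neither was called, and both entered only through the TBI arrays there too.

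Il6r, the IL-6 binding chain, had levels of 2.10, 1.29, 1.93 and 1.80 in sham and 2.52, 2.97, 2.16 and 3.15 in TBI cortex, with no overlap. The difference of 0.92 (SE 0.24) was not called against sham (adjusted p = 0.0828), nor was the difference of 0.58 against naive (adjusted p = 0.113). Il6st differed by 0.39 from sham (adjusted p = 0.259) and by 0.53 from naive (adjusted p = 0.0715). A second Il6st probe was called against naive at a difference of 0.35 (adjusted p = 0.0477). Among the ligands, Cntf differed from sham by 0.31 (adjusted p = 0.207) and Lif by -0.07 (adjusted p = 0.948), although Lif was above background in all 4 TBI arrays and in 1 of 4 sham arrays. Il6 was below detection in all 12 cortical arrays at 24 hr.

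**Figure D2:**
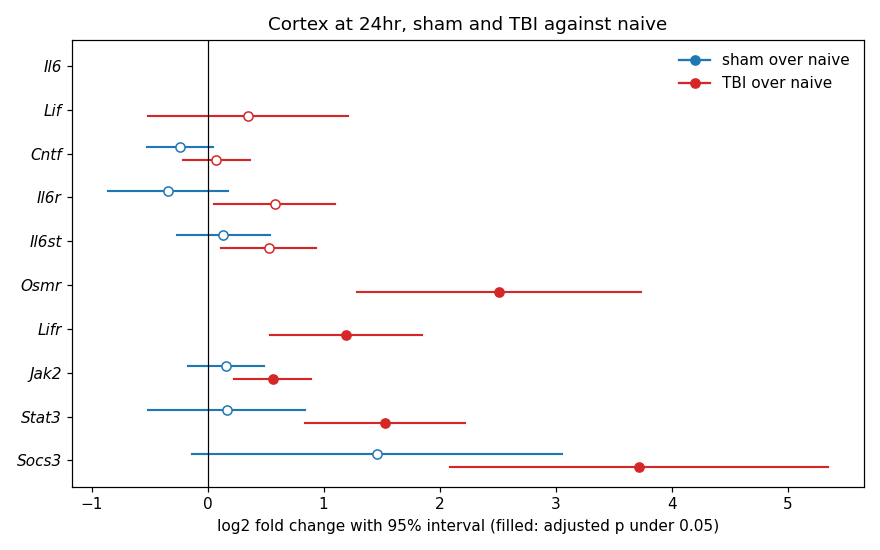
Log2 difference of sham (blue) and of TBI (red) from naive cortex at 24 hr, as points with 95% confidence intervals from limma, filled where the adjusted p was under 0.05 and left out where a gene did not pass the filter. Jak2, Stat3 and Socs3 are filled in TBI, with Socs3 farthest at 3.72, as are Osmr and Lifr, which entered only through the TBI arrays, and no sham point is filled.

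Markers of other cell types varied among the injured and sham cortices as well. The summed linear level of 6 measured neutrophil genes, of 7 listed, was 5.0 to 8.3 in naive rats. In sham rats 1 to 4 it was 6.30, 24.4, 6.26 and 46.3, and in TBI rats 1 to 4 it was 167, 70.6, 14.8 and 164. The sham rats with high Socs3 and Stat3 were those with high neutrophil sums, and TBI replicate 3 had the lowest Socs3, the lowest Stat3 and the lowest sum of its group. Of this list, S100a9, Csf3r and S100a8 carried the sums. The granule genes Elane and Ngp, which define immature neutrophils, were not above background in any naive or sham array and were in 2 of 4 TBI arrays, and the granule collagenase Mmp8 was above it in no naive, 1 of 4 sham and 3 of 4 TBI arrays. Summed microglia and macrophage markers were 158 to 227 in sham and 218 to 296 in TBI rats. Of this list, P2ry12 and Tmem119 had lower ranges in TBI than in sham rats, and the other genes higher ones. Summed meningeal markers were 57.2 to 98.2 in naive rats, 116, 296, 115 and 141 in sham rats 1 to 4 and 136, 170, 200 and 34.6 in TBI rats 1 to 4. T cell sums were 2.39 to 3.29 in sham and 3.70 to 6.00 in TBI rats. Cortical markers summed to 163, 65.3, 107 and 94.0 in sham rats 1 to 4, lowest in the pair with high Socs3, and to 81.3, 163, 79.9 and 69.3 in TBI rats. The part of any of these in the Socs3 and Stat3 values was not tested. Without TBI replicate 3, the members called against sham were Socs3 (2.85, adjusted p = 0.0484), Stat3 (1.59, adjusted p = 0.0328), Il6r (adjusted p = 0.0369) and Lifr, which entered only through the TBI arrays. In that fit 1173 of all probes were called, against 56 with every array. Of 8 fits with 1 array left out, only this 1 changed the member count against sham. With the fold change and unadjusted p thresholds of the study's methods, 5 members were called against sham (Il6r, Osmr, Lifr, Stat3 and Socs3), beside 10.3% of all tested probes, and of these Osmr and Lifr entered only through the TBI arrays. Against naive, Stat3 and Socs3 were called with each naive or TBI array left out in turn, and Jak2 only without naive replicate 3 or TBI replicate 3. TBI and sham arrays at this time lay on different slides, so slide and group cannot be told apart.

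**Figure D3:**
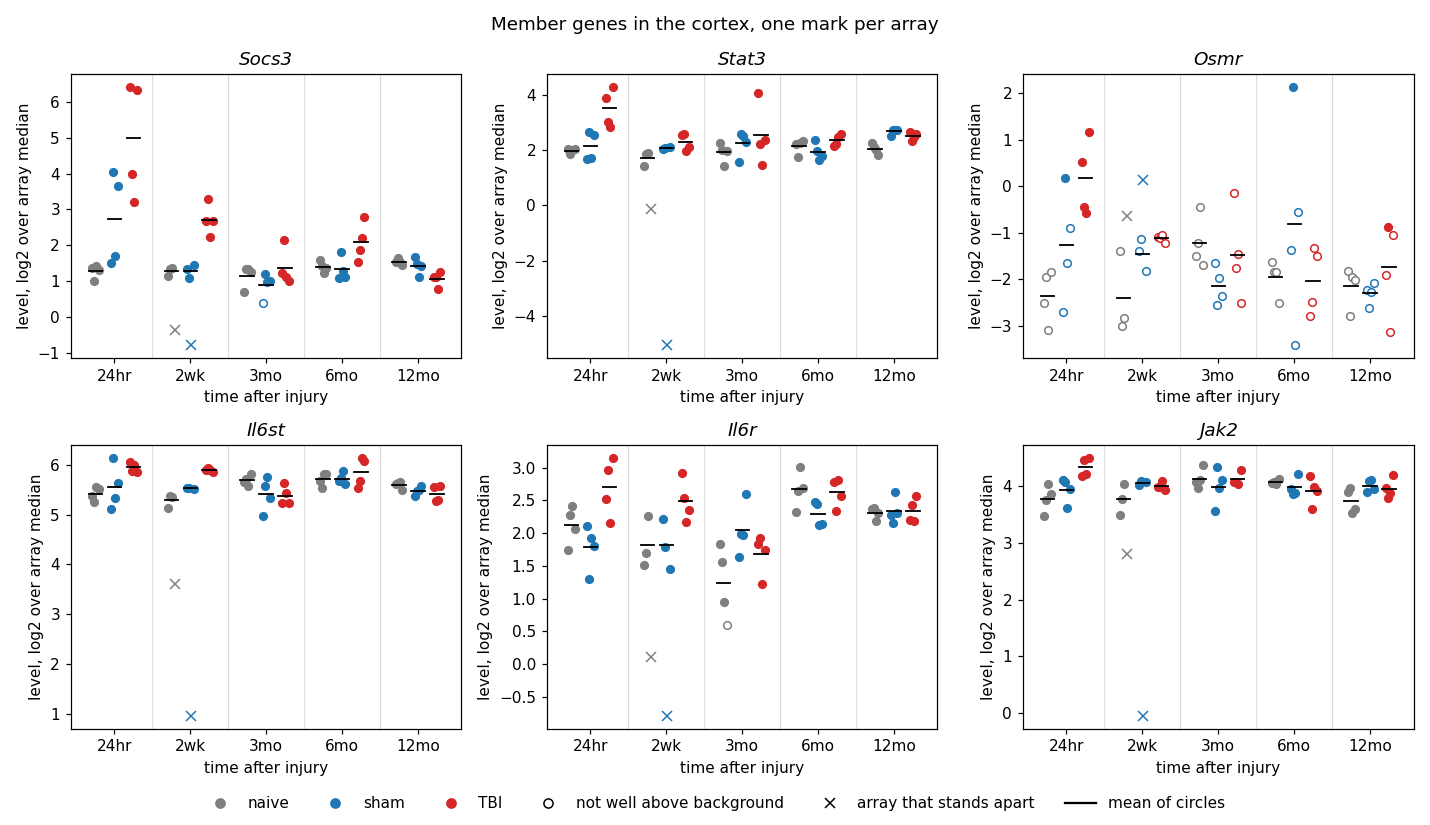
Levels in the cortex, log2 over the array median, for Socs3, Stat3, Osmr, Il6st, Il6r and Jak2 at 5 intervals in naive, sham and TBI rats, with 1 mark per array, open circles where the probe was not well above background, crosses for arrays that stand apart and bars for the mean of the circles. TBI rats reach 6.42 for Socs3 and 4.29 for Stat3 at 24 hr, and Socs3 in TBI rats at 2 weeks lies between 2.22 and 3.29, above every sham rat.

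In the hippocampus at 24 hr, the shared receptor chain, the kinase and the transcription factor rose together against sham. Il6st had levels of 4.57 and 4.48 in sham rats and 5.51, 5.38 and 5.03 in TBI rats, a difference of 0.78 (SE 0.18, adjusted p = 0.0422). Jak2 had levels of 3.12 and 3.07 in sham rats and 3.78, 4.03 and 3.69 in TBI rats, a difference of 0.74 (SE 0.16, adjusted p = 0.0324). Stat3 had levels of 2.45 and 2.80 in sham rats and 3.32, 3.71 and 3.25 in TBI rats, a difference of 0.80 (SE 0.20) that lay at the threshold (adjusted p = 0.04998). The groups, of 2 and 3 rats, did not overlap in any of the 3 genes, but the share of all probes without overlap is not known here. Il6st, Jak2 and Stat3 were 3 of 5 members tested, where 13.5% of all tested probes were called. Il6r, at 0.06 (adjusted p = 0.837), and Cntf, at 0.26 (adjusted p = 0.267), were not called.

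Socs3 and Osmr did not pass the filter there because no sham array and not every TBI array was above background. Socs3 levels were -1.38 and -1.17 in sham rats, both below detection, and -0.26, 0.76 and 0.37 in TBI rats, of which the last 2 were above it. With the sham signal below detection, no difference is given. Osmr levels were -3.05 and -2.94 in sham and -1.32, -1.15 and -2.24 in TBI rats, with 1 array above background. When all probes were tested without the filter, limma gave adjusted p values of 0.139 for Socs3 and 0.185 for Osmr, and no probe of any gene was called.

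This comparison rests on 5 arrays. Its sham and TBI arrays lay on different slides and were scanned on different days, so slide, scan day and group cannot be told apart. Leaving out sham replicate 1, sham replicate 2 or TBI replicate 2 left no member called, leaving out TBI replicate 1 left none of Il6st, Jak2 and Stat3 called, and leaving out TBI replicate 3 left Il6st and Jak2. Summed microglia and macrophage markers were 127 and 162 in sham rats and 241, 195 and 186 in TBI rats. Of this list, Aif1, Itgam, Csf1r and Cd68 were higher in every TBI than in every sham rat. Cx3cr1, P2ry12 and Tmem119 overlapped, and Tmem119 had the lower range in TBI rats. Neutrophil sums were 4.50 and 5.24 in sham rats and 50.3, 106 and 16.1 in TBI rats, and TBI replicate 3, with the lowest sum, had the lowest Il6st, Jak2 and Stat3. S100a8 and S100a9 carried these sums, with Elane, Ngp and Mmp8 below detection in all 5 arrays. Summed meningeal markers were 20.7 in both sham rats and 37.6, 31.2 and 54.5 in TBI rats, and endothelial sums were 29.4 to 30.3 and 36.6 to 53.6. Sums were lower in TBI than in sham rats for astrocytes (1452 to 1647 against 1743 to 1758), oligodendrocytes (2235 to 2701 against 2993 to 3568) and neurons (560 to 620 against 629 to 696). Of the astrocyte list, Aldh1l1, Slc1a3, S100b and Gja1 were lower in every TBI rat, and Aqp4 and Slc1a2 overlapped. Gfap went the other way, at a log2 level of 5.71 to 6.46 in sham and 7.60 to 8.33 in TBI rats. Summed cortical markers were 10.1, 12.0 and 12.1 in the TBI hippocampi, below both sham arrays. Their ratio to the hippocampal markers was 0.162, 0.193 and 0.244 in TBI against 0.285 and 0.231 in sham rats, which overlapped. The part of any of these in the differences was not tested. For Il6r the TBI difference at 24 hr was 0.06 in hippocampus against 0.92 in cortex, but no difference between the tissues, and none between intervals, was called by limma among 53 interaction tests of the members (lowest adjusted p = 0.156), of which 6 had an unadjusted p under 0.05. These tests used all arrays. For the interactions that include cortex sham 2 weeks replicate 3, no member was called in any of 16 fits each with 1 array left out.

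**Figure D4:**
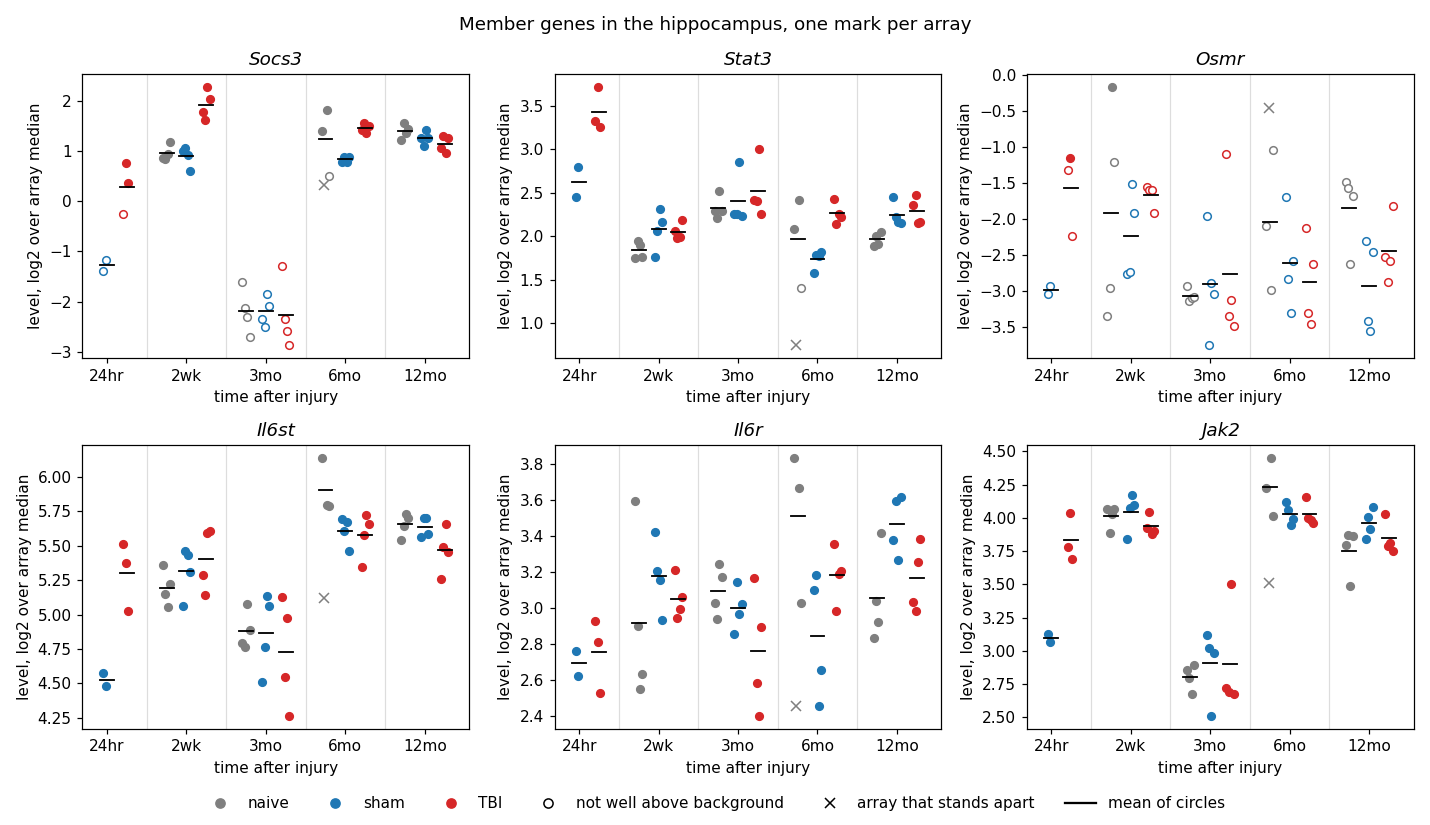
Levels in the hippocampus, log2 over the array median, for the same 6 genes, intervals and marks as in the cortex. The 24 hr and 3 month arrays are of another design, where Socs3 and Il6st have other probes, so those columns cannot be set against the rest. Socs3 in TBI rats at 2 weeks lies between 1.61 and 2.28, above every sham and naive rat.

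At 2 weeks, Socs3 was higher after TBI in the hippocampus and Stat3 was not. Hippocampal Socs3 levels were 0.86, 0.84, 0.93 and 1.18 in naive, 1.01, 1.06, 0.93 and 0.60 in sham and 1.78, 1.61, 2.28 and 2.04 in TBI rats. The TBI rats lay above all others. Socs3 rose by 1.03 against sham (SE 0.15, adjusted p = 0.0238) and by 0.97 against naive (SE 0.15, adjusted p = 0.00327), and it was the only one of 6 members tested to be called, where 2.37% of all probes were called against sham and 12.8% against naive. The median difference of all probes from sham was -0.11, so that relative to it the Socs3 difference was 1.14. Stat3 differed from sham by -0.02 (95% interval -0.26 to 0.22), Jak2 by -0.11, Il6st by 0.09 and Il6r by -0.13, with adjusted p values of 0.440 to 0.918. A second Socs3 probe gave a smaller difference from sham of 0.51 that was not called (adjusted p = 0.235). The call against sham also ended when sham replicate 2 or 3 or TBI replicate 3 or 4 was left out, with adjusted p values of 0.0652 to 0.0915 and differences of 0.91 to 1.08.

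Microglia and macrophage genes rose in the same hippocampi. Of 7 listed markers 6 were called, including Cd68 at 2.70 (adjusted p = 0.0249) and Csf1r at 0.95 (adjusted p = 0.0249). Their summed level was 166 to 199 in sham and 225 to 400 in TBI rats, and all 7 were above background in each of these arrays. TBI replicates 3 and 4, the highest in Socs3, were also the highest in this sum. Neutrophil sums were 3.8 to 4.9 in sham and 4.1 to 8.7 in TBI rats, and summed astrocyte markers were 1975 to 2416 and 2086 to 2538, overlapping between the groups. Meningeal sums, at 30.5 to 39.3 in sham and 40.5 to 50.3 in TBI rats, did not overlap, nor did neuronal sums, at 1507 to 1602 and 1307 to 1406. Naive rats had meningeal sums of 40.7 to 113. The part of any of these in the Socs3 difference was not tested.

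In the cortex at 2 weeks, Socs3 levels were 2.67, 3.29, 2.22 and 2.67 in TBI rats, 1.33, 1.08 and 1.46 in sham replicates 1, 2 and 4, and 1.13, 1.35 and 1.37 in naive replicates 1 to 3. In the arrays that stand apart, sham replicate 3 and naive replicate 4, it read -0.79 and -0.36. With all arrays the difference from sham was 1.94 (SE 0.60) and was not called (adjusted p = 0.503), with a median over all probes of 0.95 and 0.00848% of probes called. A second Socs3 probe then differed from sham by 0.43 (limma adjusted p = 0.534). Il6st, Stat3 and Jak2 then differed from sham by 1.51, 2.01 and 0.97, and Il6st from naive by 1.02, and none was called. Without these arrays Socs3 rose by 1.42 against sham (SE 0.21, adjusted p = 0.00173) and by 1.43 against naive (SE 0.22, adjusted p = 0.00167), where 4.48% and 4.77% of probes were called. Il6st without them rose by 0.60 against naive (adjusted p = 0.0151), with levels of 5.86 to 5.93 in TBI and 5.14 to 5.38 in naive rats, and differed by 0.37 from sham (adjusted p = 0.158). Stat3 differed from sham by 0.22 (95% interval -0.18 to 0.63, adjusted p = 0.595) and Jak2 by -0.06 (adjusted p = 0.878). The summed microglia and macrophage markers were 355 to 576 in TBI cortex and 175 to 202 in the 3 sham arrays kept, and their part in the Socs3 difference was not tested.

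From 3 months on, no member was called between TBI and sham in either tissue. At 3 months 5 members were tested in the hippocampus and 6 in the cortex, where 0.0134% and 0% of probes were called, and differences ranged from -0.24 to 0.12 for hippocampus and from -0.37 to 0.48 for cortex. Cortical Socs3 at 3 months differed from sham by 0.48 with all arrays and by 0.31 (adjusted p = 0.675) without the sham array with low cortical markers, which had the lowest sham Socs3 level, 0.38. Against naive, that sham group differed in Il6r by 0.81 (adjusted p = 0.301) with it and 0.95 (adjusted p = 0.164) without it.

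At 6 months hippocampal Socs3 was 0.79, 0.87, 0.78 and 0.89 in sham rats and 1.42, 1.57, 1.36 and 1.49 in TBI rats, and Stat3 was 1.58 to 1.82 in sham and 2.14 to 2.43 in TBI rats. Neither gene overlapped between the groups, but the share of all probes without overlap is not known here. The differences were 0.63 (SE 0.26) and 0.52 (SE 0.26), both with an adjusted p of 1.00, where 0.0134% of all tested probes were called. Naive rats spanned both groups, with Socs3 between 0.51 and 1.82 in the 3 arrays that do not stand apart. Without the naive array that stands apart, which enters the common variance, the adjusted p was 0.525 for both. In the cortex at 6 months, Socs3 was 1.09 to 1.81 in sham and 1.54 to 2.79 in TBI rats, a difference of 0.77 (SE 0.24, adjusted p = 0.310), and Stat3 differed by 0.41 (adjusted p = 0.458), where 0.0724% of probes were called. A second Socs3 probe differed there by 0.20 (limma adjusted p = 0.866). The thresholds of the study's methods called Socs3 in both tissues at 6 months, beside 2.52% of hippocampal and 3.95% of cortical probes. The second cortical probe did not pass them.

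At 12 months 0% of probes were called between TBI and sham in either tissue. In the cortex Socs3 differed by -0.35 (SE 0.13, adjusted p = 0.837), and in the hippocampus by -0.12 (adjusted p = 0.647). A second Socs3 probe differed by 0.005 in the cortex and by -0.46 in the hippocampus (limma adjusted p = 0.999 and 0.251). Cortical Stat3 stood apart between the controls: its level was 1.83 to 2.26 in naive, 2.53 to 2.75 in sham and 2.33 to 2.67 in TBI rats. Stat3 was higher by 0.63 in sham than in naive cortex (SE 0.11, adjusted p = 0.00625) and by 0.47 in TBI than in naive cortex (SE 0.11, adjusted p = 0.0266), where 4.35% and 5.34% of probes were called. Socs3 went the other way between TBI and naive rats and fell by 0.47 on the log2 scale (SE 0.12, adjusted p = 0.0498), from 1.44 to 1.66 in naive to 0.78 to 1.25 in TBI rats. The second Socs3 probe differed there by -0.95 and was not called (limma adjusted p = 0.392). Both comparisons use the same naive rats. With 1 array left out, the calls between TBI and naive did not both hold in any of 8 fits. Stat3 alone was called without naive replicate 1, naive replicate 2 or TBI replicate 2, and neither without any of the other 5 arrays. The Stat3 call between sham and naive was kept in all 8 such fits. The naive arrays lay on a different slide from the sham and TBI arrays. In both comparisons with naive rats, slide and group therefore cannot be told apart.

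Other genes of the pathway were counted in lists chosen with earlier results of these data known. In the hippocampus at 24 hr, 13 of 22 tested genes among 27 listed STAT3 targets and acute phase genes rose and none fell, with a median difference of 1.45 against 0.003 over all named genes. Of all tested probes, 13.5% were called there. Lcn2, an iron-scavenging acute phase protein, rose by 7.06 (SE 1.26, adjusted p = 0.020). Ccl2, a monocyte chemokine and among the 13, differed by 6.24, but only 1 of the 2 sham arrays was above background. Ccl2 entered only through the TBI arrays, so its test is not used. The count and median still include it and describe the list only. Serpina3n, a secreted protease inhibitor, rose by 5.82 (adjusted p = 0.0328), and Timp1, an inhibitor of metalloproteinases, by 5.04 (adjusted p = 0.0033). The intermediate filament genes of reactive astrocytes, Vim and Gfap, rose by 3.08 and 1.88. Among 7 tested Janus kinases, adaptors and other STATs, Shc1 rose by 0.98 (adjusted p = 0.0145) and Stat5a by 0.97 (adjusted p = 0.0235). The phosphatase Ptpn2, which removes phosphate from JAK and STAT proteins, was the only one of 6 tested inhibitors called (0.60, adjusted p = 0.0401). None of 3 other tested ligands and receptors of the family was called there.

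No gene of these 4 lists was called against sham in the 24 hr cortex, although 23 of 24 tested STAT3 targets had a positive difference, with a median of 1.04 against 0.14 over all named genes. Of these targets 16 passed the thresholds of the study's methods, beside 10.3% of all tested probes. Against naive, 18 of the 24 rose and none fell, where 17.5% of all tested probes were called. The 24 include Serpina3n and Ccl2, which entered this comparison only through the TBI arrays. Ccl2 entered the comparison with sham only through them too. Counts without such genes are not given, so these counts and medians describe the list only. Serpina3n was below detection in every naive cortex and at least 438-fold higher in TBI cortex, where its levels were 6.65 to 7.42, and the sham rats lay between at 1.32 to 5.11. It entered the test against naive only through the TBI arrays, so that test is not used for it. Lcn2 rose by 7.38 (SE 0.84, adjusted p = 0.00608) and Timp1 by 4.83 (adjusted p = 0.00729). Jak3 rose by 1.14 (adjusted p = 0.0181) and Ptpn2 by 0.59 (adjusted p = 0.0209). At 2 weeks, 1 of 19 tested targets was called in the hippocampus against sham (Vim, 1.21, adjusted p = 0.0384), beside 2.37% of all tested probes. In the cortex without the arrays that stand apart it was 10 of 21, beside 4.48% of all tested probes, with a median of 0.64 against 0.02 over all named genes. Ccl2 was higher by 3.25, A2m by 2.80 (adjusted p = 0.00461) and Lcn2 by 1.89 (adjusted p = 0.0445), beside Shc1 at 1.00 (adjusted p = 0.0249) among the signal carriers. Here too Ccl2 entered only through the TBI arrays, so its test is not used. The 21 tested genes include it, so that count and median describe the list only. With all arrays none was called there. At 3, 6 and 12 months no gene of the 4 lists was called against sham in either tissue.

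STAT3 binds palindromic sites of the form TTCNNNGAA, and the 300-base RefSeq promoter windows (GRCr8, 250 bases before to 50 after an annotated start) were searched for these letters, which read alike on both strands. The motif was in 8.87% of all 33469 windows. It was in none of 9 member windows, and Lif had none to search. Of those 9, the windows of Il6r, Il6st, Lifr and Socs3 lie inside the gene as annotated, and those of Osmr and Stat3 span its outer end with starts 241 and 154 bases inside. Of 19 windows of STAT3 targets 4 held it. The upstream 250 bases are printed for the 2 of these whose genes rose in TBI cortex against naive at 24 hr, 5′ to 3′ on the plus strand with the motif in capitals. Serpina3n is at chr6:129088142-129088391, with the match beginning at base -123 from the start of transcription used, and Icam1, an adhesion molecule that rose by 1.37 (adjusted p = 0.0129), at chr8:27829595-27829844, with the match beginning at base -107 and the start 157 bases inside the annotated gene.
Serpina3n: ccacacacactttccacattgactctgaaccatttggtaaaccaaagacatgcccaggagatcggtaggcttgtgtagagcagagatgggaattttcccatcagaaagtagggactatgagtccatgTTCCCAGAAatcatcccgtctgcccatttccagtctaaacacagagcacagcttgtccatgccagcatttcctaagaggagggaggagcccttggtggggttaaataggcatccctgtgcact
Icam1: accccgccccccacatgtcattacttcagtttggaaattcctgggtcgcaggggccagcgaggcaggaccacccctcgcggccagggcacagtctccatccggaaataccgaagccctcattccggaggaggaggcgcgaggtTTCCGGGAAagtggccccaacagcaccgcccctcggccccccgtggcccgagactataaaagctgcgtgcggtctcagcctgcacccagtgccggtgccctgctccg
A match of these letters is a description of the sequence and was not tested for binding.

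The genes most like Socs3 and Stat3 across the cortex were found by Pearson's r over the 15 cortical group means, among 11849 genes. These means share arrays, scaling and a single response at 24 hr, so r is given as a description. For Socs3 the nearest were Mcm3, Ccl2, Hspb1, Cebpd and Cd14 (r of 0.98 for each), and for Stat3 Nedd9, Ifrd1, Fhl3, Foxm1 and Lap3 (0.95 to 0.94). Osmr was left out of this, since it was below detection in most cortical arrays. Without the arrays that stand apart, 3 of the 5 genes near Socs3 and 1 of those near Stat3 were again among the nearest 5.

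Il6r differed between the uninjured regions. At 12 months naive hippocampus had levels of 2.83, 3.04, 2.92 and 3.41 and naive cortex 2.37, 2.38, 2.19 and 2.31, with no overlap and a difference of 0.74 (SE 0.13, adjusted p = 0.00267). At 2 weeks the difference was 1.52 (adjusted p = 0.0059) with all arrays and remained called (group means 2.92 and 1.82, SE 0.26, adjusted p = 0.0173) without the naive cortex array that stands apart. At 6 months it was 0.58 and not called (adjusted p = 0.189) with all arrays, and 0.84 (adjusted p = 0.0198) without the hippocampal array that stands apart. With all arrays, 37.3% of all tested probes were called at 12 months, 5.02% at 2 weeks and 16.6% at 6 months, so that a call between the regions was common. Without the hippocampal array that stands apart, 6622 of 22847 probes were called at 6 months. The share at 2 weeks without the cortical array that stands apart is not known here. With arrays scaled to their 75th percentile, the probes called went from 1217 to 4611 of 24258 at 2 weeks and from 3785 to 9166 of 22844 at 6 months. The median difference of all probes was 0.44 at 2 weeks and 0.13 at 12 months, and relative to it Il6r differed by 1.08 and 0.61. The 2-week call ended without hippocampal replicate 1. No other member was called between the naive regions in these 3 comparisons. The arrays of the regions lay on different slides scanned on different days, so slide, scan day and region cannot be told apart.

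**Figure D5:**
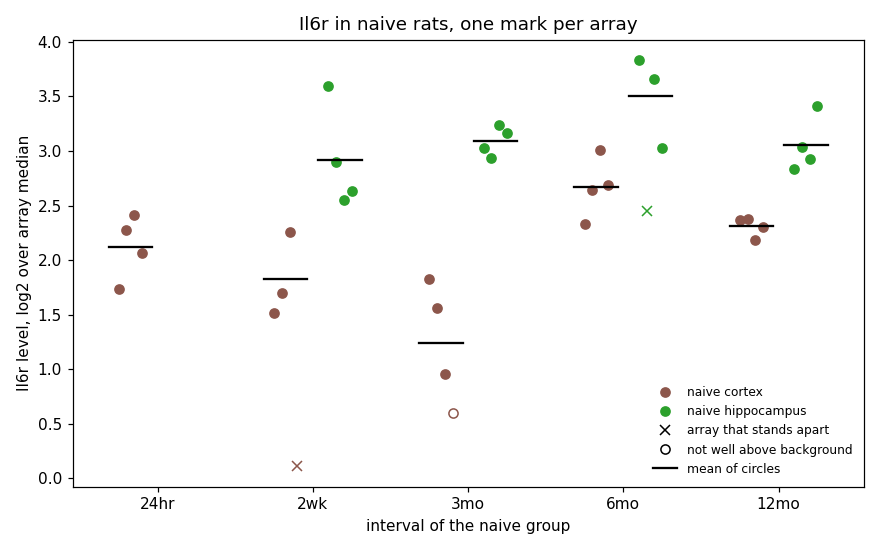
Il6r level in naive rats, log2 over the array median, in cortex and hippocampus, with 1 mark per array, crosses for arrays that stand apart and bars for the mean of the circles. At 12 months the 4 hippocampal arrays (2.83 to 3.41) lie above the 4 cortical ones (2.19 to 2.38), and the hippocampus at 3 months was measured on the other array design.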

How the data were processed

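Labelled RNA of each sample was hybridized to a 1-colour Agilent rat array, and the authors deposited the scanner output of Feature Extraction 11.5.1.1 (intensity, background-subtracted, not scaled between arrays) and value tables of intensity, in which each array was divided by a constant. The scanner files were used. Spots flagged as outliers were left out, spots of a probe were averaged, and the log2 median of each array was subtracted, as the methods name the median. Each gene was read from its brightest probe per design. Differences were fitted with limma 3.58.1 (lmFit, eBayes; R 4.3.3) over all groups of a tissue and interval, for probes that all arrays of 1 or both groups showed well above background, with Benjamini-Hochberg adjustment over all tested probes. The methods' thresholds were a fold of 1.4 and an unadjusted p under 0.05.

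The number of arrays limits the precision, and p-values measure the spread between these rats. All 10 listed genes are named whatever their values. From the other lists, the rule named up to 3 called genes with the largest difference in each direction against sham, and all called genes of short lists, and the other list genes named were chosen after their values were seen. Members and lists were chosen with earlier results of these data known. A few listed genes are not reported here and were left out of the counts and sums. The procedure was tested on simulated data, where it recovered 44% of genes changed by 1 log2 unit with the hippocampal arrays at 24 hr and 70% with the cortical arrays at 24 hr.

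The 29 groups each lay on 1 slide. TBI and sham shared a slide for hippocampus (2 weeks, 3 months, 12 months) and cortex (3 and 12 months), and sham and naive for cortex (24 hr, 2 weeks, 6 months) and hippocampus (6 months). In all other comparisons slide and group cannot be told apart. For TBI against sham in the hippocampus at 24 hr and for the naive regions, the groups compared were also scanned on different days. Equal replicate numbers deviated together in every pair, by a correlation over 0.1, only in TBI against sham cortex at 12 months (0.12 to 0.22), sham against naive hippocampus at 3 months (0.11 to 0.52) and the naive regions at 2 weeks (0.11 to 0.25) and 12 months (0.28 to 0.37).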

Additional observations from a re-analysis of the deposited data

Results flagged for a closer look

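In 18 of 157 groups of 4 arrays, the gap between the highest or lowest array and its neighbour was a larger part of the group's whole range than Dixon's 95% critical value, which chance exceeds in about 1 in 20 groups. Arrays that stand apart gave 6 of them. In cortex sham replicate 3 at 2 weeks the gap was lowest-sided, at 0.963 of the range for Cntf, 0.997 for Il6st, 0.982 for Jak2 and 0.834 for Socs3, and in cortex naive replicate 4 at 2 weeks it was 0.869 for Il6st and 0.863 for Socs3.

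In injured cortex at 24 hr, Lif was highest in replicate 3 (0.862) and Lifr in replicate 4 (0.859), where Lifr read 0.32 against -0.87 in the next rat. In the cortex at 3 months, Cntf was lowest in naive replicate 4 (0.833), Socs3 lowest in naive replicate 1 (0.843) and Jak2 highest in TBI replicate 4 (0.857). At 6 months Cntf was lowest in cortex sham replicate 4 (0.922) and in cortex TBI replicate 1 (0.856). At 12 months Cntf was highest in cortex sham replicate 2 (0.834) and Stat3 lowest in cortex sham replicate 1 (0.870), which at 2.53 still lay above every naive rat.

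In the hippocampus, Jak2 was highest in TBI replicate 3 at 3 months (0.941) and in TBI replicate 1 at 6 months (0.844), and Stat3 was highest in sham replicate 3 at 3 months (0.966).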

How the results depend on the processing

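Of the member differences called, or with an unadjusted p under 0.05 against sham or between TBI effects, none reversed its sign in any alternative. Of the others, which were not followed through every alternative, Jak2 against sham turned from 0.97 to -0.06 in the cortex at 2 weeks without the arrays that stand apart, and in the cortex at 3 months Cntf turned from 0.20 to -0.01 and Jak2 from 0.13 to -0.02 without the array with low cortical markers, none of them called. Of the counts of members called, 651 stayed within 1.5 times the count reported and 66 did not. The cause of these changes was not tested. Leaving out the arrays that stand apart or hold low cortical marker levels, and the methods' thresholds, were chosen after seeing the data.

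Without the filter on dim probes, 0 members were called against sham in the hippocampus at 24 hr and at 2 weeks, 3 in the cortex at 24 hr and 1 at 2 weeks, 2 between sham and naive rats of either tissue at 12 months, 0 between TBI and naive cortex at 12 months and 0 between the naive regions at 2 weeks. With normexp, run on the median signals because mean signals were not used here, it was 4 in the cortex at 24 hr against sham, 3 between sham and naive hippocampus at 12 months, 0 between TBI and naive cortex at 12 months and 1 for the hippocampal TBI difference at 3 months minus 24 hr. With 2 groups alone it was 0 against sham in the hippocampus at 2 weeks, and against naive 1 in the cortex at 2 weeks and 0 at 12 months. The mean of all probes of a gene gave 1 between TBI and naive cortex at 12 months. With 75th percentile scaling it was 1 between TBI and naive cortex at 2 weeks, and 1 at 6 months and 2 at 12 months between the naive regions. Quantile normalization gave 0 and 1 between the naive regions at 2 weeks and 6 months, and the deposited processed values led to counts of 2, 1 and 2 at 2 weeks, 6 months and 12 months. Without the arrays that stand apart it was 1 against sham and 2 against naive in the cortex at 2 weeks and 1 between the naive regions at 6 months. Over all probes, 56 were called against sham in the 24 hr cortex, 1 with 75th percentile scaling or quantile normalization, and 4355 with normexp.

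The methods' thresholds gave 1 against sham in the hippocampus at 6 months, 5, 1 and 1 in the cortex at 24 hr, 2 weeks and 6 months, 1 for sham against naive cortex at 3 months, 1 for TBI against naive hippocampus at 6 months and 1 and 1 in the cortex at 2 weeks and 6 months, 0 there at 12 months, and 2, 1 and 2 for the tissue difference at 24 hr, the cortex at 6 months minus 24 hr and the hippocampus at 3 months minus 24 hr.

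With each replicate left out in turn, counts ranged from 0 to 2 for the hippocampus at 24 hr, 0 to 1 at 2 weeks against sham and for sham against naive there, 0 to 4 and 0 to 1 for the cortex against sham at 24 hr and 2 weeks, 2 to 6 and 0 to 1 for the cortex against naive at 24 hr and 12 months, and 0 to 1 for the naive regions at 2 weeks and at 6 months. Where this left 1 sham array in the hippocampus at 24 hr, that array was assumed to vary like the other group.

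With the replicate number as a block, 0 members were called against sham in the hippocampus at 24 hr and 2 weeks and 1 between TBI and naive cortex at 12 months, comparisons whose arrays share only a number, and the block changed no other count of members called. The slide as a block was not run, because each group lay on 1 slide.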
